A study of Caenorhabditis elegans with 6 samples.

Results

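The 4386 peaks described here are ATAC-seq peaks of isolated germ nuclei (IGN) from *C. elegans* whose highest point, the summit, lies inside an intron. They are 2726 of the 13996 peaks called in wild type, or 19.5% (18.8 to 20.1, 95% Wilson interval), and 1660 of the 9674 peaks called in the *prde-1* mutant, or 17.2% (16.4 to 17.9). A peak was taken as an intron peak when its summit fell within the body of a protein-coding gene, in no annotated exon of any gene, and more than 500 bp from the 5′ end of every protein-coding gene (WBcel235, Ensembl release 115). No measured value entered this choice other than the position of the summit. Every interval in the text is a 95% interval that covers counting error only, and since neighbouring peaks are not independent of each other these intervals are too narrow.

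ATAC-seq measures how readily the Tn5 transposase inserts into DNA, and a peak is a stretch where insertions pile up. IGN were prepared from young adults grown at 20°C, of the strain VC2010 for wild type and SX2499, with the genotype *prde-1(mj207)V*, for the mutant, with 3 samples each. PRDE-1 is a germline component of the Upstream Sequence Transcription Complex (USTC), which is needed to transcribe Type-I piRNA precursors but not Type-II ones. Each genotype has 1 peak list for its 3 samples. Reads were downsampled and merged over samples, and whether peaks were called on the merged reads or on the samples together is not stated. So no value of a single sample was analysed, no test over samples could be made, and the depth behind a peak is unknown. The mutant worms were harvested at a later hour than wild type, each when most animals carried the same range of embryo numbers. Genotype and hour of harvest therefore cannot be told apart. The number of nuclei per reaction differs between the labels and the methods of the study.

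Introns are transcribed with the gene and removed from the RNA by splicing. DNA inside an intron can be open because it holds an enhancer, the promoter of a shorter transcript of the same gene, or the promoter of a noncoding RNA gene nested within the intron. In *C. elegans* most introns are short, and the long ones are often found in genes with large regulatory regions, such as those for cell adhesion, transcription factors and signalling.

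To give a view of the DNA under the summits, the reference sequence (RefSeq, WBcel235, plus strand, 5′ to 3′) is shown with 100 bases on either side of the summit, and the 11 bases centred on the summit are in capitals. The first set holds 4 of the highest-scoring wild type intron peaks, all of them also present in the *prde-1* list, in *mnk-1* (chrII:10548861-10549061), *F09A5.3* (chrX:13145218-13145418), *gei-4* (chrIII:349860-350060) and *zfp-1* (chrIII:8801936-8802136).
mnk-1: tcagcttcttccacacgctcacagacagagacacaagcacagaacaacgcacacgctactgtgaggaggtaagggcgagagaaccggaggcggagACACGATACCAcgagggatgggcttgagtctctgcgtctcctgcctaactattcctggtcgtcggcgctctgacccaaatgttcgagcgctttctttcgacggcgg
F09A5.3: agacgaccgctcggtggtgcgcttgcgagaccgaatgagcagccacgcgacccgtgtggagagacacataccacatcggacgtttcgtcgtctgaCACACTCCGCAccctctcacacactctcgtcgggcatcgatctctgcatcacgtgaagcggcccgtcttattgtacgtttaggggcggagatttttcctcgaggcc
gei-4: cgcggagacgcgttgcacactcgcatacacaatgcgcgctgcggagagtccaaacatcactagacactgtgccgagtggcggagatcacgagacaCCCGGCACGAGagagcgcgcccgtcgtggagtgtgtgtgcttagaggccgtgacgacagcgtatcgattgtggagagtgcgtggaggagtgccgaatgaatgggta
zfp-1: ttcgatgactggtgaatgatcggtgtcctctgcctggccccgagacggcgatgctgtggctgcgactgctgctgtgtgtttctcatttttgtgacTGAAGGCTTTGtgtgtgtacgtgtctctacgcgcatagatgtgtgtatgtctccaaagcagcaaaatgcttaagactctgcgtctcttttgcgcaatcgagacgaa

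These windows were rich in G and C, with 57.2% in *mnk-1*, 59.2% in *F09A5.3*, 60.2% in *gei-4* and 50.7% in *zfp-1*, against 32% over all intron bases that the rule allows. Every 31-base word in these 4 windows occurs a single time in the nuclear genome.

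The second set holds 4 of the highest-scoring wild type intron peaks that overlap no *prde-1* peak, in *Y49E10.4* (chrIII:12382866-12383066), *unc-51* (chrV:19999979-20000179), *Y59C2A.3* (chrII:2218627-2218827) and *hpo-38* (chrIII:233111-233311), and is shown because repeated sequence is common among them.
Y49E10.4: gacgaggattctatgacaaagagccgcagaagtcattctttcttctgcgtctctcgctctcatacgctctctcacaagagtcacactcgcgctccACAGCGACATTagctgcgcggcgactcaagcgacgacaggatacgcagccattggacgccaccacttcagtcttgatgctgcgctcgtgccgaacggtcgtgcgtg
unc-51: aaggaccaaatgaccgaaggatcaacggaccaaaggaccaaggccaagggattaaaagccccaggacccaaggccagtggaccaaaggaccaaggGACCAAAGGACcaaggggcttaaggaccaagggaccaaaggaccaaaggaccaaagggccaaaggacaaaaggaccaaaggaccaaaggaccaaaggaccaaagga
Y59C2A.3: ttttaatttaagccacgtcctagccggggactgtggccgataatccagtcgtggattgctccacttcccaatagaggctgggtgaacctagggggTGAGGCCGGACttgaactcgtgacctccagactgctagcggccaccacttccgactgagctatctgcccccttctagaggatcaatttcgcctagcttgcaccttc
hpo-38: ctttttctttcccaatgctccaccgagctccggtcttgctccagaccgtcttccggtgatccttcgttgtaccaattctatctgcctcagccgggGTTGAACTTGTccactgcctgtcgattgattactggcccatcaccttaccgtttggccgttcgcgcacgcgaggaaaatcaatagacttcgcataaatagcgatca

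In the *unc-51* window the 7-base word GGACCAA occurs 15 times, and no 7-base word occurs more than 2 times in the other 3. Of the 31-base words in the window, the share that occurs a single time in the genome was 18.1% in *Y49E10.4*, 95.3% in *unc-51*, 35.1% in *Y59C2A.3* and 0% in *hpo-38*. G and C made up 56.7%, 53.2%, 55.2% and 51.7% of these windows, in the same order.

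The third set holds the 3 highest-scoring *prde-1* intron peaks that overlap no wild type peak, in *tftc-1* (chrIV:2374881-2375081), *acl-4* (chrX:2068336-2068536) and *F27E5.7* (chrII:10123711-10123911).
tftc-1: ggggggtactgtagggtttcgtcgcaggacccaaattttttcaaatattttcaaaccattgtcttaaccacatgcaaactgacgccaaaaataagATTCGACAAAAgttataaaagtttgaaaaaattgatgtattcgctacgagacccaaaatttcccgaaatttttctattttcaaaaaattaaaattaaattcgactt
acl-4: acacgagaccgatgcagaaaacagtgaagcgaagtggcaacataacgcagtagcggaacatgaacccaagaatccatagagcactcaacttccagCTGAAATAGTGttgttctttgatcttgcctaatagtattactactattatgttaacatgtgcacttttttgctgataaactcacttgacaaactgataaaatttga
F27E5.7: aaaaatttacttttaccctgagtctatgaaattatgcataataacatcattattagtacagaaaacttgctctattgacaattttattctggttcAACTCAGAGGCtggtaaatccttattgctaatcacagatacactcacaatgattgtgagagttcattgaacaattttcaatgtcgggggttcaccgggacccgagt

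These windows were poorer in G and C than both sets above, with 32.3% in *tftc-1*, 38.3% in *acl-4* and 35.3% in *F27E5.7*.

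Intron peaks were sparse for the space they had. The bases that the rule allows come to 28429647, or 28.4% of the nuclear genome, and held 95.9 wild type peaks per Mb. The density was 259 per Mb within 500 bp of a protein-coding gene 5′ end, 133 in intergenic DNA and 78.7 in coding exons. It was 305 in exons of noncoding genes and 87.5 in untranslated exons. Relative to the rest of the nuclear genome, the density in introns was 0.611 (0.586 to 0.637) in wild type. In the *prde-1* mutant introns held 58.4 peaks per Mb, against 211 near 5′ ends, 98.8 in intergenic DNA and 26.4 in coding exons. Exons of noncoding genes held 208 there and untranslated exons 58.9. The introns therefore ranked below 5′ ends, noncoding gene exons and intergenic DNA and above coding exons in both lists, as the plot of density by summit position shows. They were above untranslated exons in wild type and slightly below them in the mutant. Wild type peaks of any kind covered 4.71% of the eligible intron bases and *prde-1* peaks 2.41%.

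**Figure D1:**
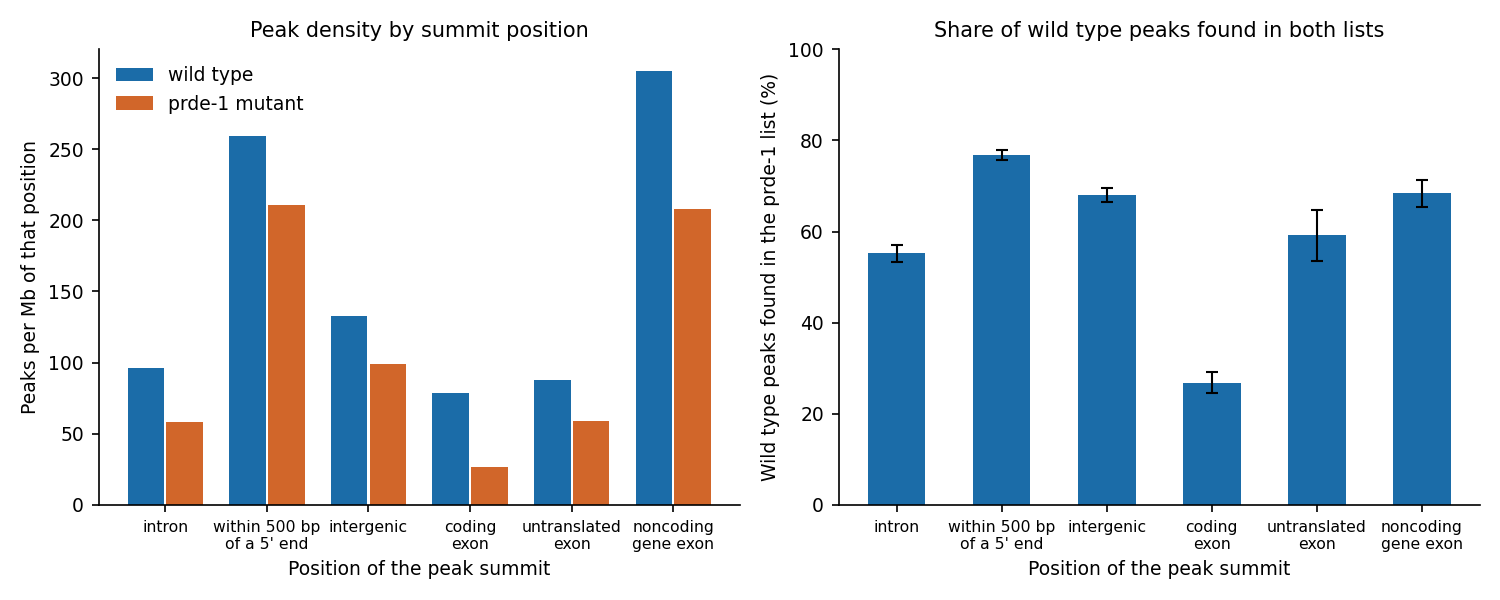
Left, peaks per Mb of each summit position in the wild type (blue) and *prde-1* mutant (orange) lists; right, the share of wild type peaks at each position with an overlap in the *prde-1* list, with 95% Wilson intervals. Introns held 95.9 and 58.4 peaks per Mb, and 55.2% of their wild type peaks were found in both lists.

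A smaller share of wild type intron peaks than of all other wild type peaks had a counterpart in the mutant. A peak counts here as found in the other list when it shares at least 1 base with a peak there. Of the 2726 wild type intron peaks 1504 overlapped a *prde-1* peak and 1222 did not, so 44.8% (43 to 46.7) were not found, beside 36.1% of all wild type peaks. The share found in both lists was 55.2% (53.3 to 57.0) in introns and 66.1% (65.2 to 66.9) in all other wild type peaks, a difference of -10.9 percentage points (Newcombe interval -13 to -8.83). By position the share found was 76.8% (75.6 to 78.0) near 5′ ends, 68% (66.4 to 69.5) in intergenic DNA, 59.3% (53.5 to 64.8) in untranslated exons and 26.8% (24.6 to 29.1) in coding exons. In noncoding gene exons it was 68.5% (65.4 to 71.3). The intervals of introns and untranslated exons overlap, and introns lie apart from the other positions. Without the coding exon peaks in the comparison the difference was -17 points (-19.1 to -14.9).

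In the reverse direction almost every intron peak of the mutant was matched. Of the 1660 *prde-1* intron peaks 1627 overlapped a wild type peak and 33 did not, so 1.99% (1.42 to 2.78) were not found, beside 1.91% of all *prde-1* peaks. The difference from all other *prde-1* peaks was -0.0913 points (-0.929 to 0.563), an interval that includes 0. The summit of the wild type counterpart also lay in an intron for 1527 of the 1627 (93.9%) and in an exon of a noncoding gene for 47. The wild type list is the longer one. With the wild type list reduced to its 9674 highest scores, 76.4% (74.3 to 78.3) of its intron peaks were found in the *prde-1* list and 90.0% (88.5 to 91.4) of the *prde-1* intron peaks in it.

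Presence in the mutant list followed the rank of the peak. Rank 1 is the peak with the highest score, the area under its −log10 p curve. The median rank of intron peaks was 7624.0 of 13996 in wild type, 54.5% of the way down the list, and 5123.5 of 9674 in the *prde-1* mutant, 53.0% of the way down. The wild type list was divided by rank into 10 groups of equal size, with group 1 the highest. Group 1 held 266 intron peaks, or 9.76% of them (8.70 to 10.9), close to an even share. All 266 were found in the *prde-1* list, as were the 229 of group 2. The share was then 72.0% (66.2 to 77.1) in group 5, 34.1% (29 to 39.7) in group 7 and 6.86% (4.53 to 10.3) in group 10. Other wild type peaks gave 82.3%, 50.0% and 11.1% in those groups. The plot by rank shows the intron peaks at or below the others from group 3 on, with intervals that do not overlap in groups 5 to 9. Weighted to the ranks of the intron peaks, the others would have 62.4% found, which leaves a difference of -7.23 points. Weighted to their GC content the difference was -7.53 points, to their width -11.3 points, and to rank and GC content together -5.10 points.

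**Figure D2:**
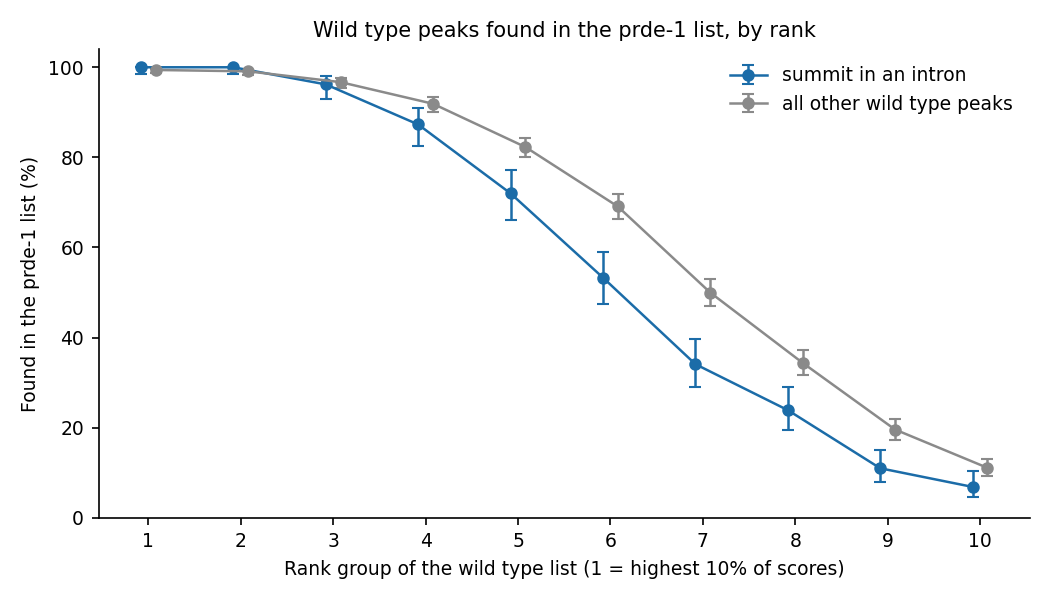
Share of wild type peaks with an overlap in the *prde-1* list in each of 10 equal groups by rank in wild type, for intron peaks (blue) and all other peaks (grey), with 95% Wilson intervals. Intron peaks went from 100% in groups 1 and 2 to 6.86% in group 10, and from group 3 on the blue points lie at or below the grey ones.

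Intron peaks that were found and those that were not differed in most of what the lists record. The 1504 found in both lists had a median rank of 4395.5 (quartiles 2053.8 and 7027.0), a median width of 439 bp (280 and 727) and a median −log10 p at the summit of 11.5 (8.06 and 18.7). The 1222 in wild type alone had a median rank of 10903.5 (8862.8 and 12460.8), a width of 268 bp (192 and 410) and a −log10 p of 5.25 (4.60 and 6.18). For −log10 p the quartiles of the groups do not overlap. The peaks in wild type alone were also richer in G and C, with a median of 47.4% (43.9 and 51.2) against 43.9% (40.7 and 46.8). They lay in shorter introns, with a median of 1257.5 bp against 2051.5 bp. The 33 in the *prde-1* list alone were narrow and of low rank, with a median width of 182 bp, a median rank of 8928.0 and a GC content of 40.6%. These measures move together with presence, and the part of each was not tested.

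Repeated sequence also moved with presence. In 1943 of the 2726 wild type intron peaks (71.3%) every 31-base word within 100 bases of the summit occurs a single time in the genome, beside 79.3% of all wild type peaks. Of these, 60.6% (58.4 to 62.7) were found in the *prde-1* list, and of the 783 with at least 1 repeated word 41.8% (38.4 to 45.2). Where more than 50% of the window is soft-masked in the reference, which marks repeats and low-complexity sequence, 35.8% (31.4 to 40.5) of 422 peaks were found, against 58.7% (56.7 to 60.7) of the 2304 others. The masked peaks also ranked lower, with a median of 9184.5 against 7199.5, as did those with a repeated word, with 8166.0 against 7433.0. The part of rank in these shares was not tested. Among peaks with unique windows alone, introns still differed from other positions by -7.17 points (-9.56 to -4.81).

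Widths ranged from 96 to 6370 bp in wild type introns, with a median of 346 bp (quartiles 227 and 575), and reached 5218 bp in the mutant, with a median of 316 bp (216 and 487). Widths above 1000 bp were measured for 221 wild type members (8.11%) and 72 *prde-1* members (4.34%). Of the narrowest 10% of the wild type list, up to 158 bp, 29.6% (24.0 to 35.8) of the intron peaks were found in the mutant against 55.6% of the others. In the widest 10%, from 934 bp, the shares were 86.5% (81.7 to 90.2) and 86.2%. Narrow intron peaks and narrow peaks elsewhere thus had different shares, and wide ones had shares within their intervals.

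For the 1504 wild type intron peaks found in both lists, the *prde-1* peak with the largest overlap was mostly narrower and centred at the same place. It was narrower in 1365 pairs (90.8%), with a median ratio of widths of 0.844 (quartiles 0.631 and 0.946), whereas pairs outside introns had a median ratio of 0.900 and were narrower in 86.1%. The summits were a median of 3.00 bp apart, and in 1336 pairs (88.8%) at most 50 bp apart. In 27 pairs they were more than 500 bp apart. A single wild type intron peak overlapped several *prde-1* peaks in 95 cases, with 5 at most. The *prde-1* summit was itself in an intron in 1456 pairs (96.8%), and most of the rest had it in a noncoding gene exon (19), a coding exon (16) or near a 5′ end (8). Ranks went together across the pairs, with a Spearman rho of 0.863 over peaks, which are not independent, and 0.856 outside introns. Median −log10 p was 11.5 in wild type and 7.27 in the mutant, values that depend on the depth behind each list and on how the samples were combined, and the part of depth was not tested.

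**Figure D3:**
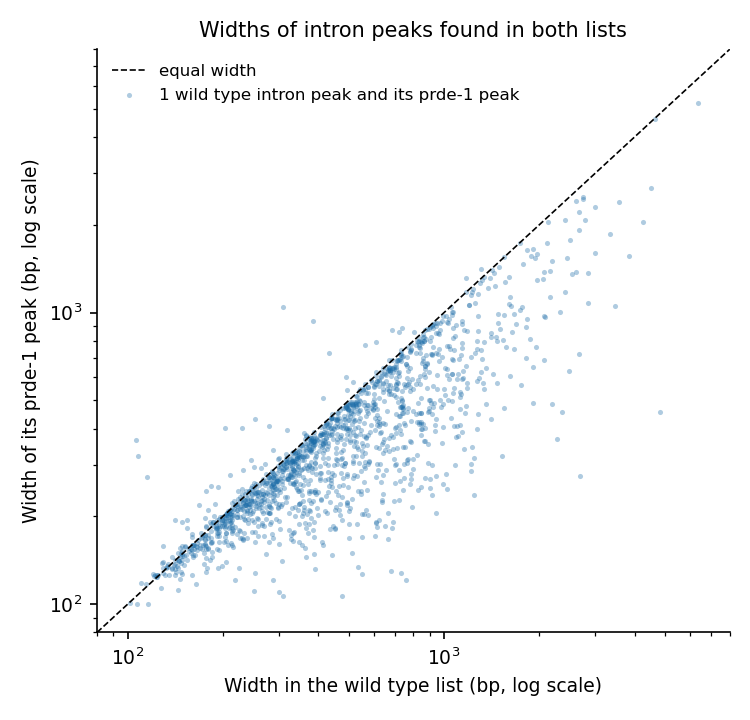
Width of each wild type intron peak found in both lists (x axis, bp, log scale) and of the *prde-1* peak with the largest overlap (y axis, bp, log scale); the dashed line marks equal widths. Of the 1504 pairs, 1365 lie below the line.

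The highest-scoring intron peak of the wild type list lay in *ppfr-1*, a regulatory subunit of protein phosphatase 4, at chrI:9379930-9384449. It was 4520 bp wide, ranked 6 of 13996 and had a −log10 p of 54.8, and its *prde-1* counterpart was 2683 bp wide at rank 10, with the summit at the same base, 9381479. The peak spans the 5′ ends of the microRNA gene *mir-71* and of several other noncoding RNA genes within intron 7 of *ppfr-1*. *mir-71* is known for its role in lifespan. The next was in *mnk-1*, which encodes a kinase that acts downstream of MAP kinases, at chrII:10546672-10553041. With 6370 bp it was the widest member, it ranked 9 in wild type and 6 in the mutant, where it was the highest-scoring intron peak, and its summit lay 38 bp from the 5′ end of a shorter *mnk-1* transcript. A second wide peak of *mnk-1*, 4646 bp at rank 90, followed at chrII:10541884-10546529, and its counterpart measured 4616 bp at rank 74.

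*T24B8.3* held the next, of 2799 bp at rank 22 (chrII:9059905-9062703), whose interval includes the 5′ ends of 4 noncoding RNA genes, 1 of them a piRNA gene. *Y111B2A.12* held a peak of 4261 bp at rank 24 (chrIII:12612389-12616649), which in the mutant measured 2048 bp at rank 170. In *F09A5.3* a peak of 2493 bp at rank 26 (chrX:13143167-13145659) covers the 5′ ends of *mir-54*, *mir-55* and *mir-56*, microRNA genes of the *mir-51* family, and was also the highest-scoring intron peak of the X chromosome. It measured 1771 bp at rank 29 in the mutant. *gei-4* had a peak of 1911 bp with the highest −log10 p of any intron member, 63.7 (chrIII:348898-350808), at rank 27 in wild type and 25 in the mutant. *zfp-1*, a PHD finger protein related to human AF10, had one of 2065 bp at rank 32 (chrIII:8801342-8803406), at rank 32 in the mutant too. *pbrm-1*, a polybromo subunit of the SWI/SNF chromatin remodeler, had one of 1960 bp at rank 40 (chrI:7499663-7501622), at rank 34 in the mutant. All 8 were present in both lists, as were all intron peaks of rank groups 1 and 2.

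On the X chromosome the next members were in *ldb-1*, a LIM domain-binding cofactor, with 1296 bp at rank 44 in wild type and 1259 bp at rank 42 in the mutant, and in *ajm-1*, a protein of apical junctions, with 2665 bp at rank 96 in wild type and 722 bp at rank 1535 in the mutant. The *ajm-1* peak holds the 5′ ends of 5 tRNA genes. The second-widest wild type member lay in *csr-1*, an Argonaute of the germ line, at chrIV:7957590-7962409. It was 4820 bp wide at rank 274, and the *prde-1* peak with the largest overlap was 456 bp wide at rank 7854 with its summit near a 5′ end. Of the genes the study names, *mes-2*, which encodes the methyltransferase of Polycomb repressive complex 2, held a small peak of 173 bp at rank 8790 in wild type and 159 bp at rank 9402 in the mutant.

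Members without a counterpart started far down the lists. The highest-scoring wild type member that overlaps no *prde-1* peak ranked 2853, with 885 bp and a −log10 p of 13.9, in intron 1 of *Y49E10.4* (chrIII:12382590-12383474). It was followed by *unc-51*, an autophagy kinase (rank 2952, 1802 bp, −log10 p 6.43), *Y59C2A.3* (rank 3165, 1752 bp), *hpo-38* (rank 3473, 538 bp) and *Y105C5A.15* (rank 3560, 552 bp). The windows of the first 4 are shown above, and in the window of *Y105C5A.15* 58.5% of the 31-base words occur a single time. In the *prde-1* list the highest-scoring members with no wild type counterpart were in *tftc-1*, a subunit of the RNA polymerase III factor TFIIIC (rank 4477, 756 bp), *acl-4*, an acyltransferase (rank 5027, 336 bp), and *F27E5.7* (rank 5749, 368 bp).

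Genes with intron peaks were a minority, and many of them held several. Of the 16935 protein-coding genes with at least 1 eligible intron base, 1688 (9.97%) held a wild type intron peak and 1067 (6.30%) a *prde-1* one. In wild type 1195 genes held 1 peak, 275 held 2, 98 held 3 and 50 held 4, and the most in a gene was 14. The 493 genes with 2 or more peaks held 1531 peaks, or 56.2% of all members, and the 70 genes with 5 or more held 487, or 17.9%. In the mutant 309 genes held 2 or more, with 54.3% of the members, and the most was 10. Peaks that shared their gene with another were found in the mutant more often, 58.7% (56.2 to 61.1) against 50.7% (47.9 to 53.5) for the only peak of a gene, and ranked higher, with a median of 7195.0 against 8143.0. Only 32 wild type members lay in the body of more than 1 protein-coding gene, and they were assigned to the shorter gene.

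The number of peaks in a gene went with the length of its introns. Genes with no intron peak had a median of 589 eligible bases, those with 1 peak 2292.0 and those with several 6908.0. Across the 1688 host genes the number of peaks and the eligible length had a Spearman rho of 0.489, as a description over genes. Of genes with 1 to 500 eligible bases 1.22% held a wild type intron peak, and of genes with more than 10000 bases 60.0% did. A peak within 500 bp of their own 5′ end was called for 32.9% of host genes in wild type and for 25.3% of the genes with no intron peak. This difference was not the same at every intron length: among genes with over 10000 eligible bases the shares were 26.3% and 23.6%, and among those with over 1000 and up to 2000 bases 38% and 23.6%.

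Density rose with the length of the host intron itself and was highest in the first intron. In introns of 1 to 500 bp wild type peaks had a density of 61.3 per Mb (55.9 to 67.1), in introns of over 2000 and up to 5000 bp 139 and in introns over 10000 bp 205 (177 to 237). The *prde-1* list gave 34.2 (30.2 to 38.6), 94.3 and 140 (117 to 167) for the same lengths, so the order was the same in both lists at these lengths. Introns of over 500 and up to 1000 bp and of over 1000 and up to 2000 bp were equal at 81.0 per Mb in wild type. The first intron counted from the 5′ end had 141 per Mb (131 to 152) in wild type, the second 106 (97.1 to 116), the third 82.8 (73.9 to 92.4) and later ones 82.3 (77.9 to 87.0), and the intervals of the third and later ones overlap. By distance from the 5′ end of the gene the density varied less, from 87.1 per Mb (78.4 to 96.5) at 500 to 1000 bp to 109 (101 to 118) at 5000 to 10000 bp. The share found in the mutant was 45.7% (41.3 to 50.3) in introns of 1 to 500 bp, 51.4% and 51.5% in the following classes, and 62.2% (58.5 to 65.8) in introns of over 2000 and up to 5000 bp. It was 61.6% (57.8 to 65.2) in first introns and 51.7% (48.9 to 54.4) in intron 4 or later.

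**Figure D4:**
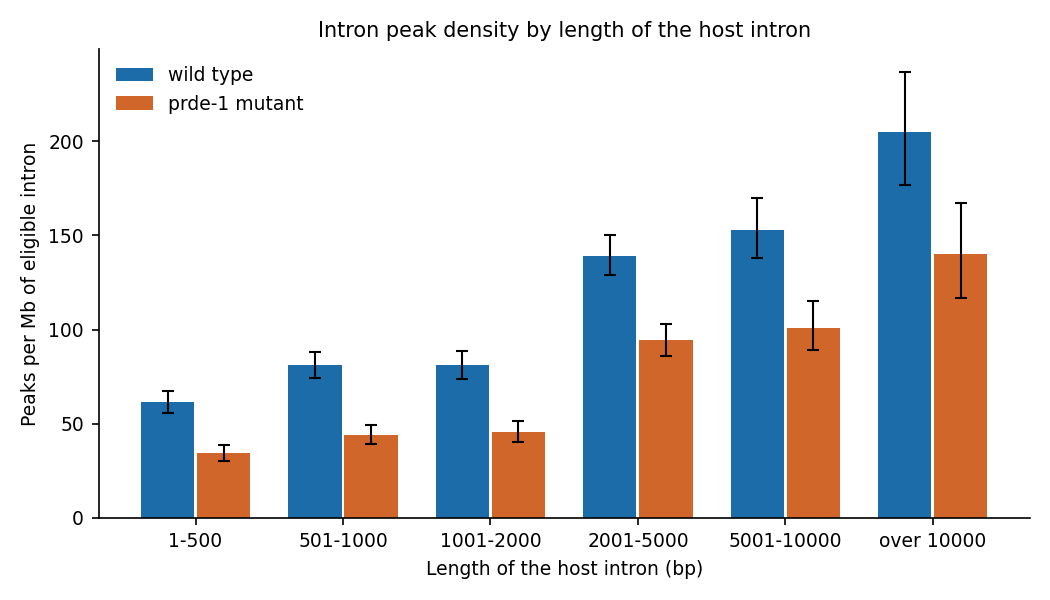
Peaks per Mb of eligible intron bases by length of the host intron (bp) in the wild type (blue) and *prde-1* mutant (orange) lists, with 95% Poisson intervals. Wild type density goes from 61.3 per Mb in introns of 1 to 500 bp to 205 per Mb in introns over 10000 bp.

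In wild type 9 genes held 10 or more intron peaks. The 8 described here are those with the most, and where genes tied at 10 those with the higher-scoring best peak were taken, which leaves out *vab-1* (10 peaks, 3 found, best rank 3831). *spsb-1*, a protein with a SPRY domain and a SOCS box, held 14 peaks along 4 of its 9 introns, 7 of them in a single intron, and 8 of the 14 were found in the mutant. They ranked from 1666 to 13046, and the highest-scoring was 15743 bp from the 5′ end with a width of 688 bp. *hmr-1*, the classical cadherin, held 13 peaks, of which 3 were found. These 3 included its highest ranks, 366 (706 bp, 38860 bp from the 5′ end) and 824 (1314 bp, 42476 bp from it), whereas the 10 in wild type alone had ranks from 6839 to 13561. *daf-16*, the FOXO factor of the insulin pathway, held 12, with 8 in intron 4, and 6 of the 12 were found. Its highest peak, at rank 91, was 1487 bp wide, 19444 bp from the 5′ end. A *daf-16* peak at rank 3596, of 1239 bp, had no counterpart in the mutant.

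*vab-10*, a spectraplakin that links cytoskeletal filaments, held 11 with 5 found, and *cdc-25.2*, a phosphatase that activates cyclin-dependent kinases, held 11, with 9 in intron 1, and 7 of the 11 were found. *daf-5*, a Ski and Sno family protein of the TGF-beta pathway, held 10 peaks, all within intron 1, with 7 found and a highest rank of 169. *lit-1*, the Nemo-like kinase of Wnt signalling, held 10 with 9 found, the exception being a peak at rank 6869. *flcn-1*, the folliculin homolog, held 10 with 7 found. In the *prde-1* list these genes held 8 (*spsb-1*), 4 (*hmr-1*), 6 (*daf-16*), 7 (*vab-10*), 7 (*cdc-25.2*), 9 (*daf-5*), 10 (*lit-1*) and 7 (*flcn-1*) intron peaks. Per 10 kb of eligible intron the wild type numbers ran from 2.75 in *hmr-1* to 6.93 in *cdc-25.2*. Of the 8 genes, *daf-16* and *flcn-1* had a peak within 500 bp of the gene's 5′ end in both lists and the other 6 in neither. As the map of these genes shows, each gene held peaks found in both lists as well as peaks in wild type alone, often in runs of the same kind. In each of the 8 genes the peak with the highest −log10 p was found in both lists. These peaks had ranks from 91 to 1666, all in rank groups 1 and 2, where every intron peak was found. Their presence is therefore no trait of these genes.

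**Figure D5:**
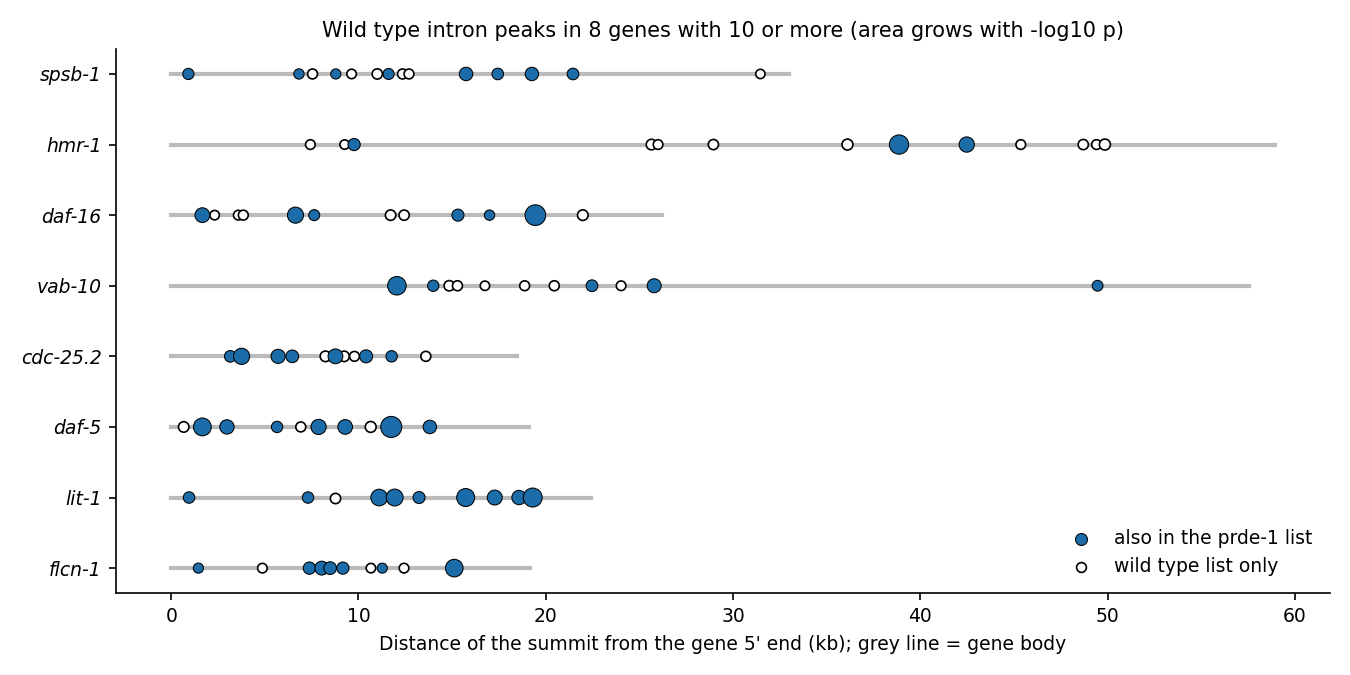
Position of each wild type intron peak in 8 of the 9 genes with 10 or more (*vab-1*, tied at 10, is not drawn), as distance of the summit from the gene 5′ end in kb (x axis); grey lines are gene bodies, filled circles are peaks also in the *prde-1* list, open circles are in the wild type list only, and circle area grows with −log10 p. *lit-1* has 9 of 10 filled and *hmr-1* 3 of 13.

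Some intron peaks lie at annotated starts of transcription that the rule does not use. The summit was within 500 bp of the 5′ end of a protein-coding transcript that starts inside its gene in 490 wild type members (18%) and 369 *prde-1* members (22.2%). Of the 490, 67.3% (63.1 to 71.4) were found in the mutant, against 52.5% (50.4 to 54.6) of the other 2236. The interval of 288 wild type members (10.6%) held the 5′ end of a noncoding RNA gene, beside 14.7% of all wild type peaks. Of these, 77.8% (72.6 to 82.2) were found in the mutant, against 52.5% (50.5 to 54.5) of the members with none, and they were wider, with a median of 626 bp against 327 bp, and of higher score, with a median rank of 2465.0 against 8068.5. Wider peaks cover more sequence, and the part of width in these shares was not tested. The rule bars summits in noncoding gene exons, where 948 wild type peaks had theirs, and those peaks remain among all wild type peaks. The 10.6% beside 14.7%, and the shares by kind of RNA given next, therefore depend in part on the rule.

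By kind of RNA, the 5′ end of a tRNA gene lay in 64 wild type members (2.35%, beside 3.39% of all wild type peaks), and all 64 were found in the mutant. The 5′ end of a microRNA gene lay in 18 (0.660%, beside 0.457%), and all 18 were found. A snoRNA gene gave 41 (1.50%, beside 1.39%) with 36 found, and a snRNA gene 29 (1.06%, beside 0.572%) with 25 found. USTC is needed for Type-I piRNA precursors, whose genes are clustered on chromosome IV, and not for Type-II ones. The types were not told apart here, and the piRNA gene in the *T24B8.3* peak is on chromosome II. piRNA genes of either type had their 5′ ends in 12 wild type members (0.440%, 0.252 to 0.768, beside 0.557% of all wild type peaks), of which 10 were found. In the mutant they had them in 3 members (0.181%, 0.0615 to 0.530, beside 0.517% of all *prde-1* peaks). Both intervals include the share of all peaks. The other kinds gave 81 *prde-1* members for tRNA (4.88%, beside 4.87%), 15 for microRNA (0.904%, beside 0.476%), 36 for snoRNA (2.17%, beside 1.61%) and 24 for snRNA (1.45%, beside 0.724%).

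Of the 6 motifs searched on both strands within 100 bases of the summit, GAGAGAGA, a run of GA repeats, was the most different between members. It occurred in 328 wild type members (12%), beside 9.17% of all wild type peaks, and in 16.6% of those found in both lists against 6.38% of those in wild type alone. Of the 328, 76.2% (71.3 to 80.5) were found in the mutant, and all 258 *prde-1* members with it were found in wild type. The 328 also ranked higher, with a median of 4742.5 against 7956.5 for wild type members without it, and the part of rank was not tested. The GATA sequence TGATAA occurred in 13.5%, beside 13.2% of all wild type peaks, and the E-box CACGTG in 6.16%, beside 6.29%. Of wild type members with TGATAA 65.1% (60.1 to 69.8) were found in the mutant, against 53.6% (51.6 to 55.6) without it. For CACGTG the shares were 67.3% (59.8 to 73.9) and 54.4% (52.4 to 56.3). Members with CACGTG also ranked higher, with a median of 6376.0 against 7719.5. Those with TGATAA ranked lower, with 8022.0 against 7582.0, and were poorer in G and C, with 42.1% against 45.7%. The part of rank and of GC content in these shares was not tested. TGACTCA (2.02%, beside 1.89%), TTTCCCGC (1.28%, beside 1.53%) and CTGTTTCA (0.770%, beside 0.822%), the core of the sequence upstream of many piRNA genes, were rare in both. The share found was 49.1% (36.4 to 61.9) with TGACTCA, 62.9% (46.3 to 76.8) with TTTCCCGC and 66.7% (45.4 to 82.8) with CTGTTTCA. All of these intervals include the 55.2% of all wild type members. A match of these letters is a description of the sequence and not a bound site.

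The chromosomes differed in number and in presence. Wild type intron peaks had a density of 118 per Mb on chromosome II, 102 on III, 98.9 on I, 91.3 on IV, 89.6 on X and less on V. The share found in the mutant was 48.0% (43.7 to 52.3) on I and 50.9% (46.0 to 55.8) on V, and between 56.4% and 59.9% on the other 4. On chromosome I the interval does not overlap those of II, III and IV. The other wild type peaks ran from 64.6% to 68.6% over the chromosomes, with 65.7% on I. Chromosome IV, which carries most piRNA genes, had 58.8% (54.1 to 63.3) of 444 intron peaks found.

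The labelled tissue was checked against marker genes. A peak within 500 bp of the 5′ end was called in wild type for 23 of 39 germ line genes (59.0%), beside 25.9% of all protein-coding genes, for 7 of 27 neuronal genes (25.9%), 6 of 19 intestinal genes (31.6%), 4 of 16 hypodermal genes and 1 of 8 somatic gonad genes. It was also called for 12 of 20 muscle genes (60.0%), so these markers do not set germ nuclei apart from muscle nuclei. Whether muscle nuclei were present, and any part of theirs in the intron peaks, was not tested. Intron peaks themselves were few in germ line genes, most of which have short introns, with a median of 252 eligible bases per gene. They were held by 3 of the 38 with an eligible intron (7.89%, beside 9.97% of all genes), namely *gld-2*, a poly(A) polymerase, with 3 peaks, *mex-3*, an RNA-binding protein, with 2, and *csr-1* with 1, and 5 of these 6 were found in the mutant. Somatic markers held them in 7 of 26 neuronal genes, 8 of 20 muscle genes, 4 of 11 hypodermal genes, 1 of 16 intestinal genes and 1 of 8 somatic gonad genes. The median of eligible bases was 2928.5 in the neuronal and 3588.0 in the muscle list. Per Mb of eligible intron, germ line genes held 194 wild type peaks, resting on 6 peaks, beside 95.9 over all genes. The density was 78.7 in neuronal, 126 in muscle, 385 in hypodermal, 94.5 in intestinal and 62.4 in somatic gonad genes. The last 3 rest on 7, 1 and 2 peaks, in that order. Muscle members included 5 in *dys-1*, dystrophin, 3 in *unc-89*, obscurin, and 3 in *lev-11*, tropomyosin, and 8 of the 17 muscle members were found in the mutant. The neuronal list had 12 members with 8 found.

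Of 32 genes for axon guidance and adhesion 15 held 57 wild type intron peaks, 202 per Mb, of which 17 (29.8%) were found in the mutant. They included *hmr-1* with 13, the Eph receptor gene *vab-1* with 10, of which 3 were found, and the L1 adhesion molecule gene *sax-7* with 6, of which 3 were found. Of 40 signalling genes of the Wnt, Notch, TGF-beta, EGF and FGF pathways 12 held 29 peaks, 199 per Mb, of which 19 (65.5%) were found. Among these *lag-1*, the transcription factor of Notch signalling, had a peak at rank 111, and all 4 peaks of *sma-9*, a cofactor of TGF-beta signalling, were found. Of 22 Hox and homeodomain genes 7 held 13 peaks, 164 per Mb, with 4 found, 3 of them in *unc-62*. Ion channel and receptor genes, which had the highest median of eligible intron bases per gene among the lists (6383.0), held 9 peaks in 6 of 35 genes, 32.2 per Mb, of which 3 were found. Chromatin regulators held 4 in 4 of 31, 70.5 per Mb. The density over all genes was 95.9 per Mb with 55.2% found. The lists were chosen by hand and share genes, such as *unc-52* in the muscle and adhesion lists, and no difference between a list and all genes was tested.

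The limit of 500 bp falls within a continuous range of distances. The 5 nearest inside it had summits 502 to 504 bp from a 5′ end, ranks from 7727 to 11033 and widths from 142 to 398 bp, and 1 of them was found in the mutant. The 5 nearest outside it had summits 496 to 500 bp away, ranks from 3442 to 12869 and widths from 121 to 672 bp, and 2 were found.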

How the data were processed

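ATAC-seq of IGN from 3 wild type and 3 *prde-1* mutant samples was analysed from the peak lists. The authors trimmed adapters with cutadapt, aligned reads to ce11 with bowtie2, removed low-quality, mitochondrial and duplicate reads, downsampled and merged the samples, shifted fragment ends to the Tn5 cut site and called peaks with Genrich; versions are not given in the sources used here. The authors deposited 1 list per genotype, whose score sums −log10 p over a peak and whose −log10 p at the summit is unadjusted. Score, −log10 p, width and presence all depend on depth, which is unknown, and on whether peaks were called on merged or separate samples, which is not stated. The lists hold 0 columns of single samples.

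Summits were placed with the WBcel235 annotation (Ensembl release 115), the assembly of ce11, and no peak ran past a chromosome end. Each base had 1 position, taken in the order 5′ end window, coding exon, untranslated exon, noncoding gene exon, intron, intergenic. A gene's introns are the gaps between its merged exons. Peaks were matched by at least 1 shared base. Shares have Wilson intervals, differences Newcombe intervals and densities Poisson intervals, all at the 95% level and for counting error only. Python 3.11.15, numpy 2.4.6, scipy 1.17.1, pandas 2.3.3 and matplotlib 3.10.9 were used. Classification, matching and weighting over 10 rank groups were tested on simulated data.

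The genes and peaks named are the 8 genes with most wild type members (ties by the highest-scoring peak), the 8 (wild type) and 3 (*prde-1*) highest-scoring members, the 5 and 3 highest-scoring of those without a counterpart, the 3 widest, the 3 highest-scoring on X, in introns over 5000 bp and with a noncoding gene 5′ end, members in genes the study names, and genes of the marker and pathway lists singled out after their values were seen. The members and lists were chosen with earlier results of these data known. The alternatives tried varied exons, 5′ ends, distance, summit or middle, score, list size, overlap and weighting.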

Additional observations from a re-analysis of the deposited data

How the results depend on the processing

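The difference from other wild type peaks is the only result that can change its sign, and it kept its sign in all 16 of its alternatives. Over the 69 alternatives of all results, 41 values stayed within the interval of the reported value (or within 1.5 times a count), and 28 did not. For these 28 the cause was not tested except where the alternative itself leaves out peaks. The numbers of intron peaks in wild type (2726), in the *prde-1* mutant (1660) and of genes with several (493) became 1237, 789 and 215 in the upper 50% of each list by score, and in wild type 1794 peaks and 314 genes with lists of equal size, both smaller by construction.

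The share of wild type intron peaks found in the mutant (55.2%) became 57.2% when exons of protein-coding genes alone barred a summit, 52.5% when the 5′ ends of every transcript did, 58.4% in the upper 50% of the lists, 76.4% with equal list sizes, 49.4% with 50% of the peak covered and 47.5% with 50% of each peak covered. In unique windows, an alternative chosen after seeing the data, it was 60.6%. The share of *prde-1* intron peaks found in wild type (98.0%) became 99.2% in the upper 50%, 90.0% with equal list sizes and 78.7% with 50% of each peak covered.

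The difference from other wild type peaks (-10.9 points) became -8.62 with exons of protein-coding genes, -13.6 with all transcript 5′ ends, -8.81 in the upper 50%, -8.58 with equal list sizes, -7.23 weighted by rank and -7.53 by GC content. With settings chosen after seeing the data it was -7.17 in unique windows, -5.10 weighted by rank and GC content together, and -17 without coding exon peaks. The density relative to the rest of the genome (0.611) became 0.699 with exons of protein-coding genes, 0.548 with all transcript 5′ ends, 0.643 beyond 1000 bp and 0.543 in the upper 50%.

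No paired analysis was possible because each list pools the 3 samples of a genotype, and for the same reason no sample was left out. Depth per sample is unknown, and absence from a list does not show closed DNA. Differences between genotypes cannot be told apart from differences in harvest, depth or library.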

Other observations

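Relative to the length of their introns, other genes stood out than those with the most peaks, and these were chosen after their values were seen. Among genes with 3 or more wild type intron peaks, the density per 10 kb of eligible intron was 21 in *best-8*, 19 in *lido-7*, 17.6 in *H05C05.2*, 16.8 in *Y105C5B.11* and 16.3 in *F32B4.8*. Of their 3, 3, 3, 3 and 4 peaks, 1 was found in the *prde-1* list, in *lido-7*. *F32B4.8* held 2 intron peaks of its own in the mutant, which overlap a wild type peak at rank 944 that is not among its 4. In *egl-27*, whose product is related to the MTA proteins of chromatin complexes, the density was 10.8 per 10 kb and all 9 peaks were found in the mutant, where the gene held 10 intron peaks. In *rol-3*, a receptor tyrosine kinase gene, 3 of 3 peaks were found at 15.7 per 10 kb, and in *hpk-1*, the homeodomain-interacting protein kinase gene, 3 of 3 at 12.8.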
